A study of Mus musculus with 48 samples.

Results

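Gdf15 (Ensembl gene ENSMUSG00000038508) encodes growth differentiation factor 15, a secreted and distant member of the TGF-beta superfamily. It was followed as 1 of the 42548 genes of the count table, across 4 arms of mice and both lung compartments. The gene was chosen with its values in these libraries already known, so its own levels and fold changes are a description and carry no test. In the RiboTag method a ribosomal subunit bears an HA epitope in selected cells, and an anti-HA precipitation recovers the RNA on their ribosomes. The labels describe 24 such mice, each with a library labelled epithelium and a library labelled whole lung, all sequenced from the transcript 3′ end with the Lexogen QuantSeq Forward kit.

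All groups carried the tag. Saline control mice (6) received no bleomycin. Bleomycin control mice (9) received bleomycin, a drug that injures the lung, together with a control agent given as Vehicle in batches S061 and S135 and as Axum8 in batch S151. Bleomycin mice with KIRA8 (5) received an inhibitor of the stress sensor IRE1α, and bleomycin mice with 3G9 (4) an antibody against the integrin αvβ6, which activates TGFβ. Saline mice of S135 were labelled Vehicle and those of S151 Axum8, so the control agent cannot be told apart from the batch. The sources used here do not give strain, age, doses, times or the promoter that drives the tag. The labels give 1 precipitation protocol for both compartments, and do not say how whole lung libraries were made differently.

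GDF15 is made as a propeptide, cleaved by proprotein convertases and secreted as a dimer. Its known receptor, GFRAL, signals with the co-receptor RET and sits in the hindbrain, where the ligand lowers food intake. Most tissues hold little Gdf15 mRNA at rest, and p53 activation and the integrated stress response (the transcription factors ATF4 and CHOP) are known inducers. In injured lung, Gdf15 is known as a gene of transitional alveolar epithelial cells. In these bulk libraries, fewer cells of a type and less RNA per cell cannot be told apart.

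RefSeq places Gdf15 on chromosome 8 at 70629393 to 70632470 (GRCm38.p6, minus strand). The long noncoding RNA gene Gm34154 lies on the opposite strand at 70632563 to 70637910. The RefSeq start of Gdf15 used here, at 70632456, and that of Gm34154 are 107 bases apart and point away from each other. The 250 bases before the Gdf15 start (chr8:70632457-70632706, minus strand, 5′ to 3′) are shown because they reach from the Gdf15 start, which is the next base after the window, past the Gm34154 start, with the 106 bases between the starts in capitals.
Gdf15 upstream: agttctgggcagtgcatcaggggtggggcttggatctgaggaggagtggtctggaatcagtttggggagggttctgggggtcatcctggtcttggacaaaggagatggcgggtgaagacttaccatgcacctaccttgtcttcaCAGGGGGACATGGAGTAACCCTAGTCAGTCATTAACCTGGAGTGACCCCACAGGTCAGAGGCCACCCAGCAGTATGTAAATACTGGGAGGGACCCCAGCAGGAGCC
The window was searched on both strands. It held no TATAAA, which 12.4% of 32851 RefSeq windows of this length hold, no TGACGTCA (the cyclic AMP response element, 1.55%) and no TGANTCA (AP-1, 6.75%). It also held no TGATGCAAT (a composite ATF4 and CHOP element, 0.167%) and no p53 half-site (7.13%), which says only that these letters are not in this window.

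Levels are given in CPM, the counts of a gene per 1000000 counts of its library. Libraries of S135 were the shallowest, with 7163613 to 20468041 total counts. Those of S151 held 24751240 to 36945995 and those of S061 held 21790283 to 51797377. Epithelial libraries concentrated their counts in few genes: the 10 most abundant genes held 38.8% to 51.0% of counts in saline mice and 21.4% to 43.2% in bleomycin control mice. Fold changes were therefore also computed with TMM scaling, which adjusts for such composition. Another 146 genes, at 50 CPM or more in each library of S061 and at a median under 0.5 CPM elsewhere, mark S061 apart from the other batches. They held 6.01% to 12.7% of its epithelial counts. Gdf15 is not among them.

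Bleomycin against saline asked how lung injury changed the gene. In epithelial libraries of saline mice Gdf15 was close to the limit of counting. In S135 the saline libraries stood at 0.624, 1.60 and 0.313 CPM, and in S151 at 0.957, 2.01 and 1.33 CPM. These levels rested on 5 to 54 counts, and the lowest, in mouse 153, had a 95% Poisson interval of 0.102 to 0.732 CPM (counting error only). The bleomycin control libraries stood at 53.5 and 15.8 CPM in S135 and at 75.0, 58.1, 47.9 and 80.4 CPM in S151. Every bleomycin control library lay above every saline library of its batch, and the lowest was 9.88-fold above the highest saline library in S135 and 23.8-fold in S151. In S061, which held no saline mice, the 3 bleomycin control libraries stood at 61.3, 91.1 and 48.1 CPM, overlapping those of S151.

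**Figure D1:**
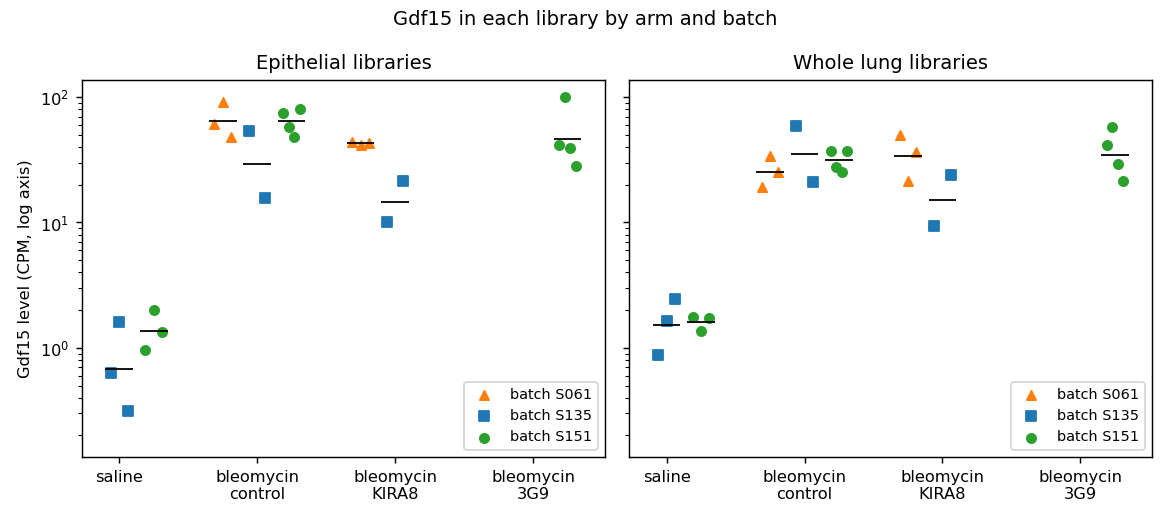
Gdf15 level in CPM (log axis) in each epithelial (left) and whole lung (right) library, by arm on the horizontal axis. Points are libraries, colour and shape mark the batch, and bars are geometric means within batch. The saline libraries of epithelium sit between 0.313 and 2.01 CPM and all bleomycin libraries of epithelium between 10.1 and 100.1 CPM, with no overlap.

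With all 24 epithelial libraries in a model of arm and batch (edgeR, TMM scaling), the log2 fold change of bleomycin control over saline was 4.97 ± 0.40 (SE, 9 and 6 mice). Libraries of the same arm and batch had a pooled SD of 0.71 on the log2 scale. The change was 5.42 within S135 and 5.55 within S151 by CPM, or 5.18 and 5.10 after TMM scaling. The difference between the scalings follows all genes: with total-count scaling the median log2 fold change of the 17291 genes tested was 0.37, against -0.00159 with TMM. By fitted rise Gdf15 ranked 113th among the 17291 genes tested.

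Whole lung showed the same separation over a narrower span. Saline libraries stood at 0.871, 1.65 and 2.46 CPM in S135 and at 1.77, 1.36 and 1.73 CPM in S151, on 10 to 64 counts. Bleomycin control libraries stood at 58.7 and 21.0 CPM in S135, at 37.4, 27.5, 25.3 and 36.9 CPM in S151 and at 19.2, 33.8 and 25.3 CPM in S061. No bleomycin control library overlapped the saline libraries of its batch, with gaps of 8.52-fold in S135 and 14.3-fold in S151. The fitted log2 fold change was 4.09 ± 0.37 (SE, 9 and 6 mice), with 4.53 within S135 and 4.28 within S151 by CPM. Gdf15 ranked 200th by fitted rise among the 19345 genes tested.

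Each mouse gave both libraries, so the response of the compartments could be set side by side within mice. The response was larger in epithelium than in whole lung by 0.83 ± 0.31 on the log2 scale (SE, mouse as a block), and leaving out a mouse gave 0.61 to 1.06. The lowest of these values came without saline mouse 153, whose epithelial library held 5 counts. The fit held 6 saline and 9 bleomycin control mice. The 3 control mice of S061 carry no information on this difference, because that batch had no saline mice. It rests on the 6 saline mice and the control mice of S135 (2) and S151 (4), and was 0.83 ± 0.31 (SE) without S061.

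The ratio of epithelial to whole lung CPM showed where this difference lay. In S151 the 4 bleomycin control mice had log2 ratios between 0.92 and 1.12, and the saline mice -0.89, 0.56 and -0.38, with no overlap. In S061 the bleomycin control mice had ratios of 1.68, 1.43 and 0.93, with no saline mice to set beside them. In S135 the bleomycin control mice, at -0.14 and -0.41, lay within the range of the saline mice, at -0.48, -0.05 and -2.98. By CPM the epithelial level was the higher in 7 of 9 bleomycin control mice, all but the 2 of S135, and in 1 of 6 saline mice. The sign of a ratio depended on scaling, since TMM over all 48 libraries moved the mean from -0.70 to 0.11 in saline mice and from -0.27 to 0.23 in bleomycin control mice of S135. In bleomycin control mice over all batches it moved the mean from 0.85 to 1.33.

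**Figure D2:**
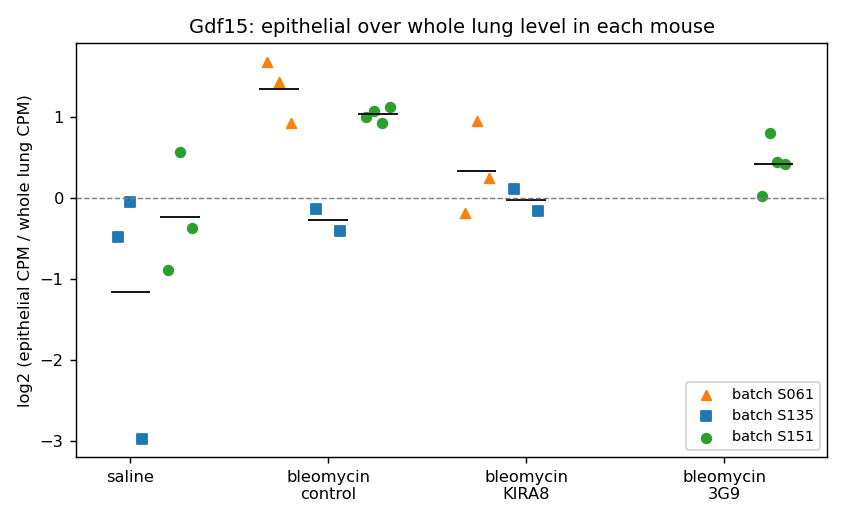
Log2 ratio of epithelial to whole lung Gdf15 CPM in each mouse, by arm and batch. Points are mice, bars are means within batch and the dashed line marks equal levels. Bleomycin control mice of S061 and S151 lie between 0.92 and 1.68, and those of S135 just below 0.

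RNA of cells other than the tagged ones was gauged by 884 genes that, in saline mice of both batches, were at least 8-fold lower in epithelium than in whole lung. They held 0.348% to 0.858% of epithelial counts in saline mice, a low share that follows from the choice. The genes were not checked against cell type markers. In epithelial libraries of bleomycin control mice they held 0.471% to 1.11% in S135 and S151 and 5.19% to 7.56% in S061, which had no part in the choice. In these mice the Gdf15 levels of S061 and S151 overlapped, and the shares did not. The part of RNA from other cells in the Gdf15 levels was not tested.

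KIRA8 against bleomycin control asked what IRE1α inhibition did to the level in injured lung. In epithelial libraries of S061 the KIRA8 mice stood close together at 43.8, 41.6 and 43.2 CPM, below all 3 bleomycin control libraries. After TMM scaling, however, the KIRA8 libraries, at 52.7, 42.8 and 49.2 CPM, overlapped the control libraries, at 58.3, 84.2 and 43.4 CPM. The 146 genes that mark S061 held 9.25% to 12.7% of counts in these KIRA8 libraries and 6.01% to 8.59% in the control libraries. The 884 genes that were low in epithelium of saline mice held 7.62% to 10.6% and 5.19% to 7.56%, also without overlap. The part of either set in the difference was not tested. In S135 the KIRA8 libraries stood at 10.1 and 21.4 CPM, against 53.5 and 15.8 CPM in control, and overlapped them. The KIRA8 libraries of S135 remained at least 6.33-fold above every saline library of the batch.

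The fitted log2 difference in epithelium was -0.63 ± 0.35 (SE, 5 KIRA8 and 9 control mice). By CPM it was -0.59 within S061 and -0.98 within S135, or -0.31 and -0.88 after TMM scaling. With a mouse left out the fitted value ran from -0.78 to -0.40, the latter without control mouse 148. The pooled SD of 0.71 describes single libraries of all arms, not the error of this difference. The SD of log2 CPM was 0.47 in control and 0.04 in KIRA8 libraries of S061, and 1.25 and 0.76 in those of S135. In the same fit 19.4% of genes differed by more in either direction.

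In whole lung the batches went opposite ways. The KIRA8 libraries of S061, at 49.8, 21.6 and 36.3 CPM, overlapped the control libraries at 19.2, 33.8 and 25.3 CPM, with 2 of 3 above all of them, for a within-batch difference of 0.42 ± 0.42 (SE, log2). Those of S135, at 9.39 and 23.9 CPM, had a log2 difference of -1.23 from control (2 against 2 mice) and overlapped it. The fitted difference over both was -0.23 ± 0.35 (SE), -1.10 without S061, and 0.09 without KIRA8 mouse 154 or 0.01 without control mouse 148. No direction for KIRA8 held over the batches of this compartment.

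3G9 against bleomycin control, all within S151, asked what blocking the integrin did. The epithelial libraries with 3G9 stood at 41.8, 100.1, 39.4 and 28.4 CPM. Of these, 3 lay below all 4 control libraries (47.9 to 80.4 CPM) and 1, mouse 219, above all of them. The fitted log2 difference was -0.17 ± 0.37 (SE, 4 and 9 mice), where control mice of other batches enter through the model. Its size and sign turned on single mice: it was -0.74 without mouse 219 and 0.03 without mouse 228. Against the 4 control mice of S151 alone, the log2 difference was -0.46 ± 0.42 (SE) by CPM and -0.38 after TMM scaling. In whole lung the 3G9 libraries, at 41.3, 57.4, 29.0 and 21.3 CPM, overlapped the control libraries at 25.3 to 37.4 CPM. The fitted difference was 0.29 ± 0.36 (SE), and 0.00129 without mouse 219. Within S151 alone it was 0.15 ± 0.34 (SE) by CPM. Every 3G9 library lay above every saline library of S151, by at least 14.1-fold in epithelium and 12.0-fold in whole lung.

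The epithelial to whole lung ratio separated 3G9 from control more clearly than the level did. The log2 ratios with 3G9 were 0.02, 0.80, 0.44 and 0.41, all below the 4 control mice at 0.92 to 1.12. After TMM scaling over all 48 libraries the 3G9 ratios, at 0.51 to 1.57, were still below the control ratios, at 1.59 to 1.89, with mouse 219 just under them. Ratios with KIRA8 in S061, at -0.19, 0.94 and 0.25, overlapped those of control through mouse 32 and control mouse 45. In S135 the KIRA8 ratios, at 0.11 and -0.16, also overlapped those of control, at -0.14 and -0.41. The mean ratio with KIRA8 was lower than in control in S061 (0.34 against 1.35) and higher in S135 (-0.03 against -0.27).

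By median CPM in S151, the order in epithelium was saline (1.33), 3G9 (40.6) and bleomycin control (66.5), and in whole lung saline (1.73), bleomycin control (32.2) and 3G9 (35.1). In S135 the order by mean was saline, KIRA8 and bleomycin control in both compartments, at 0.845, 15.7 and 34.6 CPM in epithelium and 1.66, 16.7 and 39.9 CPM in whole lung. In these 2 batches only the step from saline to a bleomycin arm was free of overlap, and each treated arm overlapped its bleomycin control. The exception in the third batch, S061, was KIRA8 in epithelium by CPM, as given above, which overlapped after TMM scaling.

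Mice that were high in 1 compartment were high in the other. Over the 18 bleomycin-exposed mice, with log2 CPM centred on arm and batch means, epithelial and whole lung Gdf15 had a Pearson r of 0.85 and a Spearman rho of 0.87. These are the values the gene was chosen on, so the correlation is a description and no p is given. Without mice 219 and 148, the 2 farthest from the median in epithelium, r was 0.81. Within batches r was 0.93 in the 8 mice of S151 and 0.42 in the 6 of S061, and the 4 mice of S135 were too few. Mouse 148 was the higher of the 2 control mice of S135 in both compartments, and mouse 219 the highest 3G9 mouse in both.

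**Figure D3:**
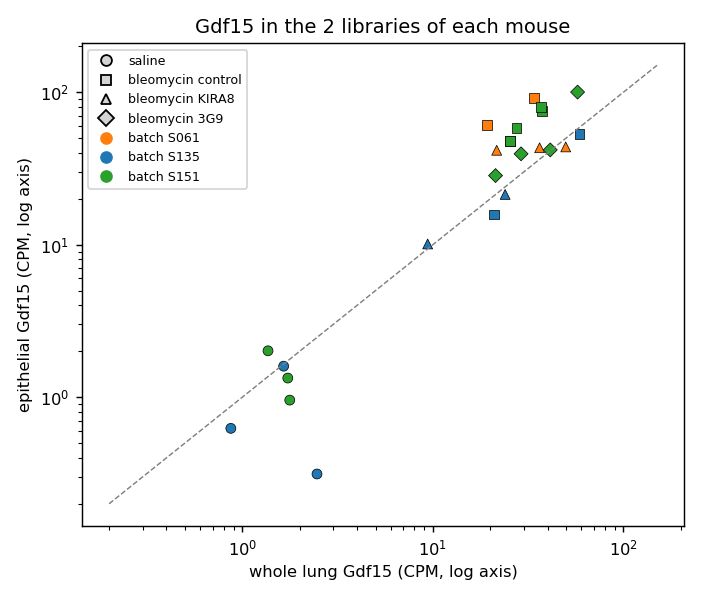
Epithelial against whole lung Gdf15 CPM in each of the 24 mice (log axes). Shape marks the arm, colour the batch and the dashed line equal levels. Saline mice lie at 0.871 to 2.46 CPM of whole lung, apart from all bleomycin mice at 9.39 CPM or more.

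Other genes were ranked by likeness to Gdf15, as the smallest of the 3 within-batch Pearson r of log2 CPM over epithelial libraries (6 in S061, 7 in S135, 11 in S151). The libraries share batch, arm and depth, so no p is given. Of 10721 genes with a mean of at least 5 CPM, 124 had a smallest r above 0.5 and 3 above 0.8, and the 10 most alike ran from 0.73 to 0.85. The table does not pair IDs with symbols, so these genes are given by ID. The most alike was ENSMUSG00000034855, with r of 0.85 in S061, 0.91 in S135 and 0.88 in S151. It had 0.235 ± 0.412 CPM in epithelial libraries of saline mice (SD, n = 6) and 5.94 ± 5.91 CPM in those of bleomycin control mice (SD, n = 9). By batch, the bleomycin control mean was 1.57 CPM in S061, 1.76 CPM in S135 and 11.3 CPM in S151. The gene passed the mean of 5 CPM only through S151, and its r in S061 and S135 rests on few counts. Within S151 its epithelial mean was highest with 3G9, at 24.5 ± 15.1 CPM (SD, n = 4). The epithelial mean of Gdf15 was instead lower with 3G9 (52.4 CPM) than in bleomycin control of that batch (65.3 CPM). In bleomycin control mice ENSMUSG00000034855 was higher in whole lung than in epithelium, at 38.0 ± 36.6 CPM over all batches (SD, n = 9). The mean of Gdf15 by CPM went the other way in S061 and S151, but not in S135. With 3G9 the whole lung level of ENSMUSG00000034855 was 209 ± 123 CPM (SD, n = 4), against 66.4 ± 39.2 CPM in bleomycin control of the same batch (SD, n = 4). That difference did not pass the test over all genes (edgeR, fitted log2 1.77 ± 0.56 SE, adjusted p = 0.300). The next was ENSMUSG00000020737, with r of 0.82, 0.91 and 0.84 in the same order. Its epithelial level differed between batches. In S135 it was 8.10 ± 3.89 CPM in saline (SD, n = 3) and 27.9 ± 8.35 CPM in bleomycin control (SD, n = 2). In S151 it was 37.5 ± 8.69 CPM in saline (SD, n = 3) and 76.9 ± 3.06 CPM in bleomycin control (SD, n = 4). Bleomycin control of S061 stood at 30.8 ± 2.80 CPM (SD, n = 3).

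The 10 genes were chosen on the epithelial libraries, where all 10 were called higher after bleomycin (edgeR, adjusted p under 0.05) beside 4.55% of all genes, a count that the choice itself favours. In the whole lung of these mice, which the choice did not use, 7 of the 10 were called higher beside 6.01% of all genes. Their median log2 fold change there was 0.94, against -0.01 for all genes. Those libraries come from the same mice and the same injury, and r within S135 and S151 spans the step from saline to bleomycin. The choice of the 10 genes therefore favours this count as well. With arm and batch means removed, over the 18 bleomycin-exposed mice, their r with Gdf15 had a median of 0.45 in epithelium, with a range from -0.51 to 0.71. The median was likewise 0.45 in whole lung, with a range from 0.11 to 0.67, against -0.04 and -0.03 for all genes compared. By the measure that chose them, the smallest within-batch r, the 10 ran from -0.52 to 0.71 in whole lung, with a median of 0.45, against -0.56 for all genes compared. The 18 epithelial libraries are among those that chose the genes, and the whole lung libraries come from the same mice. The choice therefore favours these r values too, and they are no independent check of the likeness.

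The 10 depended on how likeness was measured. Only 1 of them was among the 10 most alike by Spearman rho, 6 were with total-count scaling, and 10 with a prior count of 0.5 in place of 2. In the opposite direction, ENSMUSG00000003380 and ENSMUSG00000028618, chosen after their values were seen, had the most negative pattern. For the first, r was -0.91 in S061, -0.78 in S135 and -0.76 in S151. For the second, r was -0.96, -0.80 and -0.75. In whole lung the values in the same order were -0.53, -0.70 and -0.73 for the first and -0.83, -0.91 and -0.75 for the second. With arm and batch means removed, the first had -0.34 in epithelium and -0.76 in whole lung, and the second -0.66 and -0.86.

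**Figure D4:**
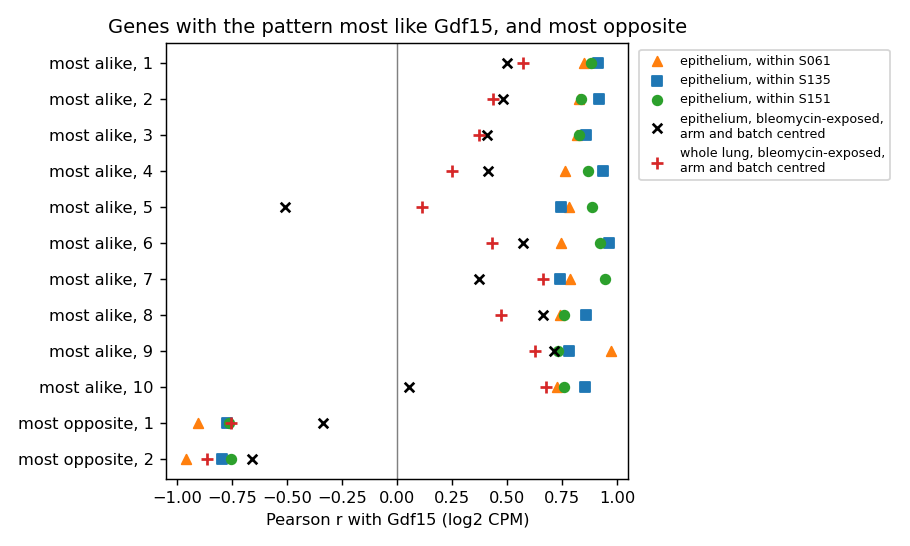
Pearson r with Gdf15 (log2 CPM) for the 10 most alike genes and the 2 most opposite, 1 row each. Triangles, squares and circles are within-batch values over epithelial libraries, which chose the genes. Black crosses are values over epithelial libraries of 18 bleomycin-exposed mice with arm and batch means removed. Red plus signs are the same over whole lung libraries. For the alike genes the black crosses run from -0.51 to 0.71 and the red plus signs from 0.11 to 0.67. The smallest within-batch value of each alike gene runs from 0.73 to 0.85.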

How the data were processed

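The deposited data are raw read counts, as whole numbers without normalization, for 42548 Ensembl genes in 48 libraries. The build GRCm38 and STAR 2.5.2b are named in the submitters' processing notes; the sources used here do not give the counting program or the annotation. Columns were matched to samples by mouse number and compartment letter (the letter I was read as whole lung, and that column of mouse 218 carries an unexplained suffix). Levels are CPM from library totals. Fold changes came from edgeR 4.0.16 in R 4.3.3, run separately per compartment on all 24 libraries with terms for arm and batch, TMM scaling, filterByExpr, robust quasi-likelihood dispersions and Benjamini-Hochberg adjustment over all genes tested. The edgeR fit of the epithelial libraries was tested on simulated data with known changes. A joint fit with the mouse as a block gave the difference between compartments. Mice were paired by their labelled numbers. Deviations of the 2 libraries of a mouse correlated across genes with a median r of 0.35 (0.15 to 0.68). No r was computed between libraries of different mice, so these values do not test the pairing.

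Gdf15 was identified by its Ensembl ID. The reference table (49997 genes) matched 0 IDs of the count table, so the 20 lists of pathway and cell type genes by symbol could not be applied, the compartments were not checked against cell type markers, and other genes are given by ID, at most 2 in each direction. Named genes are Gdf15 and, by the smallest within-batch Pearson r with it, the genes most alike with a mean of at least 5 CPM. The gene, lists and rules were chosen with earlier results of these data known. Alternatives were DESeq2 1.42.0, no filter, total-count scaling, sex as a term, no S061, single batches and each mouse left out. Mice are the replicates, and no 2 libraries of a group agreed within sampling noise (smallest chi-square per gene 10.4). Sequence is from RefSeq, GRCm38.p6.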

Additional observations from a re-analysis of the deposited data

Results flagged for a closer look

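In whole lung, mouse 148 (bleomycin control, S135) stood at 58.7 CPM of Gdf15, above the other 8 bleomycin control libraries by a gap of 0.539 of the whole range of the group. The critical value for 9 libraries is 0.493. Both ends of 12 groups were examined, and no other end passed the critical value for its number of libraries, which is higher in smaller groups. Chance alone flags about 1 in 20 groups. The 9 libraries come from 3 batches.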

How the results depend on the processing

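The rise of Gdf15 after bleomycin kept its direction under every alternative run: with 1 mouse left out it was 4.76 to 5.24 in epithelium and 3.83 to 4.24 in whole lung (log2). Without the replicate block, the larger response of epithelium was 0.78 ± 0.43 (SE), against 0.83 ± 0.31 with the mouse paired. The KIRA8 difference in whole lung was -0.23 with all batches, -1.10 without S061, 0.42 within S061 and -1.23 within S135. TMM scaling over 48 libraries gave mean log2 epithelial to whole lung ratios of 1.13 with 3G9 and 0.75 with KIRA8, against 0.42 and 0.19 by CPM. Within S135 the mean ratio of bleomycin control was 0.23 with this scaling and -0.27 by CPM. Of the 10 genes most alike, 1 was shared with the Spearman ranking and 6 with total-count scaling. Genes called higher after bleomycin in epithelium numbered 787, 3505 with total-count scaling and 1235 in DESeq2. In whole lung they numbered 1162, and 763 to 1219 with a mouse left out (763 without saline mouse 221, 773 without bleomycin control 225). The causes were not tested. The 20 gene lists gave no values because IDs could not be matched to symbols. Saline levels rest on few counts, so the size of the rise is less certain than its presence.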
